A study of Homo sapiens with 12 samples.

Results

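The genes C1orf198, DDX20, TRIM58, MTSS1L, CTIF, SHISA9 and ZBED2, were described here across both cell lines of a study of the TEAD inhibitor SWTX-143. They were chosen by symbol as strong falls under the inhibitor in 1 or both lines that stand outside the usual lists of YAP target genes. They are 7 of the 27064 gene symbols in the count tables, and 0 of the 7 belong to the 22-gene YAP/TEAD target list used for comparison. Because the measured response to the drug picked them, their fold changes under the drug are given as a description, with no test. The choice set no numerical limit, so no gene lies just inside or outside one.

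Poly(A) RNA was sequenced from 12 libraries, 3 in each of 4 groups. NCI-H226 (H226) is a mesothelioma line and ACHN a kidney cancer line. The submitters describe both as deficient in NF2, a trait that every group shares, controls included. The activity of the Hippo pathway itself was not measured here. Each line was held overnight in 100 nM SWTX-143 or in DMSO, the solvent control. Each line is an established culture line. The labels number the libraries of a group but do not state that they are independent cultures, and a p-value here therefore speaks only of variation among these libraries, part or all of which may be technical.

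Merlin, the NF2 protein, activates the Hippo kinases, which keep the coactivators YAP and TAZ out of the nucleus. Without that restraint YAP and TAZ bind TEAD transcription factors and raise genes such as CTGF, CYR61 and ANKRD1, and a TEAD inhibitor blocks that step. The genes described here have other textbook roles. DDX20 (Gemin3) is a DEAD-box RNA helicase of the SMN complex, which loads Sm proteins onto spliceosomal RNAs. CTIF binds the nuclear cap-binding complex and serves the first round of translation of new mRNAs. TRIM58 is a RING-type ubiquitin ligase known from maturing red cells, where it acts on dynein. MTSS1L (now MTSS2) is an I-BAR protein that bends membranes and meets actin. SHISA9 (CKAMP44) is a membrane protein that accompanies AMPA-type glutamate receptors, and ZBED2 is a BED-type zinc-finger transcription factor. C1orf198 has no well-established function.

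RefSeq promoter windows, from 250 bases before to 50 bases after a gene's start on build GRCh38.p14, were matched for 5 of the 7 genes, with 6 windows in all because C1orf198 has 2 starts. SHISA9 and CTIF had no matching window. The windows are shown for 3 genes, C1orf198 as the largest fall in H226 and the holder of the single motif match, and ZBED2 and MTSS1L as genes lower in both lines. All are printed 5′ to 3′ on the gene's strand, with a TEAD core motif (GGAATG, or CATTCC on the other strand) in capitals where a window holds one.
C1orf198, first start, chr1:230869542-230869841, minus strand: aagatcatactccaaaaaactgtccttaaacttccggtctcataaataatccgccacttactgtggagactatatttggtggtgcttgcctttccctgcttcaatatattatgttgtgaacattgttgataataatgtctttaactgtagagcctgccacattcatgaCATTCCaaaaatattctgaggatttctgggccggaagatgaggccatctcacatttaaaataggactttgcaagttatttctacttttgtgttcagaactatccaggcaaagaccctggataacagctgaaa
C1orf198, second start, chr1:230868472-230868771, minus strand: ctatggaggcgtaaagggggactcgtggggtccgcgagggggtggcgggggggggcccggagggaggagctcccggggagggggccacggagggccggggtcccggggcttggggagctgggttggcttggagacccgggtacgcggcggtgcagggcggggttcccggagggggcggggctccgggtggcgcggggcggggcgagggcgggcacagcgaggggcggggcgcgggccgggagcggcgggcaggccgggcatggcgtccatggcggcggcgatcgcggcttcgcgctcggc
ZBED2, chr3:111595297-111595596, minus strand: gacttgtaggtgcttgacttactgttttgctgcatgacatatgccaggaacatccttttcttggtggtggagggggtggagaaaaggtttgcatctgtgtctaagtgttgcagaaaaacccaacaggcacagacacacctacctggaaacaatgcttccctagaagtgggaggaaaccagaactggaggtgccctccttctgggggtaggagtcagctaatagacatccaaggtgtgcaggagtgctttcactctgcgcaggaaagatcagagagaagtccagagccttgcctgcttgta
MTSS1L (MTSS2), chr16:70686004-70686303, minus strand: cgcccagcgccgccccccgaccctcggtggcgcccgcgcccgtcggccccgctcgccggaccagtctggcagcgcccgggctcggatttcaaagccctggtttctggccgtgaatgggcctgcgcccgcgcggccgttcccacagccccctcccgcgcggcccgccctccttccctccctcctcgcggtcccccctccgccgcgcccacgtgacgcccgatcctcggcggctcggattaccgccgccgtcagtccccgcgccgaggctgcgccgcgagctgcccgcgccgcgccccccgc

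The first C1orf198 window held 1 TEAD core, beginning 82 bases upstream of that start, and the other 5 windows held none. Among 35116 promoter windows of 300 bases, 14% held the motif on either strand. No window of these genes held the AP-1 motif TGANTCA, searched on both strands, against 7.71% of all windows. Its palindromic form means that both strands give the same matches. The C1orf198 windows also differed in base composition, with 38.3% G and C at the first start and 81.0% at the second. Counts per gene do not show which start the cells used. A match in these letters is a description, not a binding site, and TEAD sites are often far from promoters.

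Total counts ran from 9690980 to 11262663 per library. Levels are given in CPM, the depth-scaled count unit, with TMM scaling over all 12 libraries, with ± as SD over n = 3 libraries. Fold changes are log2 values with ± as SE. The lines differed in summed tissue markers, though not in every gene. The summed level of 9 mesothelial genes was 4120 to 5070 CPM in H226 and 394 to 429 CPM in ACHN. Most of the ACHN sum was CDH2 and LRRN4, at 197 and 177 CPM with DMSO. In turn, 8 kidney epithelial genes summed to 8.79 to 18.4 CPM in H226 and 779 to 851 CPM in ACHN. Of these, EMX2 and SLC22A6 had 0 counts in both ACHN groups. The leukocyte gene PTPRC had 0 counts in every group, but other genes of the 6-gene immune list were present. That list summed to 10.4 to 17.3 CPM in H226 and 42.8 to 64.9 CPM in ACHN, where CD68 was most of it. In H226 4 endothelial genes summed to 152 to 228 CPM, mostly KDR, and 5 fibroblast genes to 1100 to 1200 CPM, mostly COL1A1. In ACHN those lists reached at most 0.367 and 7.27 CPM. The lists moved with treatment too: mesothelial genes summed to 4120 to 4300 CPM in H226 DMSO and 4710 to 5070 CPM in treated H226, and their part in the results below was not tested.

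At a limit of 2-fold the 7 genes split into those lower in H226 and those lower in ACHN. TRIM58 and SHISA9 had a measurable response in 1 line only. None of the 5 genes present in both lines passed the limit in both, and no share of all genes was computed for this. C1orf198, MTSS1L, CTIF and ZBED2 were lower in both lines by some amount, so the split rests in part on the limit. In H226, C1orf198, DDX20 and TRIM58 were lower by more than 2-fold. In ACHN, MTSS1L, CTIF, SHISA9 and ZBED2 were. MTSS1L was only just past that limit, at −1.01. It reached −0.977 under another setting and −0.984 with a library left out, both short of the limit. Of the 7 genes, 6 passed the filter on low counts in each line. For scale, 0.912% of 13484 genes in H226 and 0.371% of 13483 in ACHN fell past 2-fold with an adjusted p under 0.05. All treated libraries lay below all DMSO libraries for 6 of those 6 genes in H226 (22.4% of all tested genes) and 5 of 6 in ACHN (15.9%). These counts follow from how the genes were chosen, and nothing is read from them. In bulk RNA, fewer cells that express a gene and less RNA per cell cannot be told apart.

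**Figure D1:**
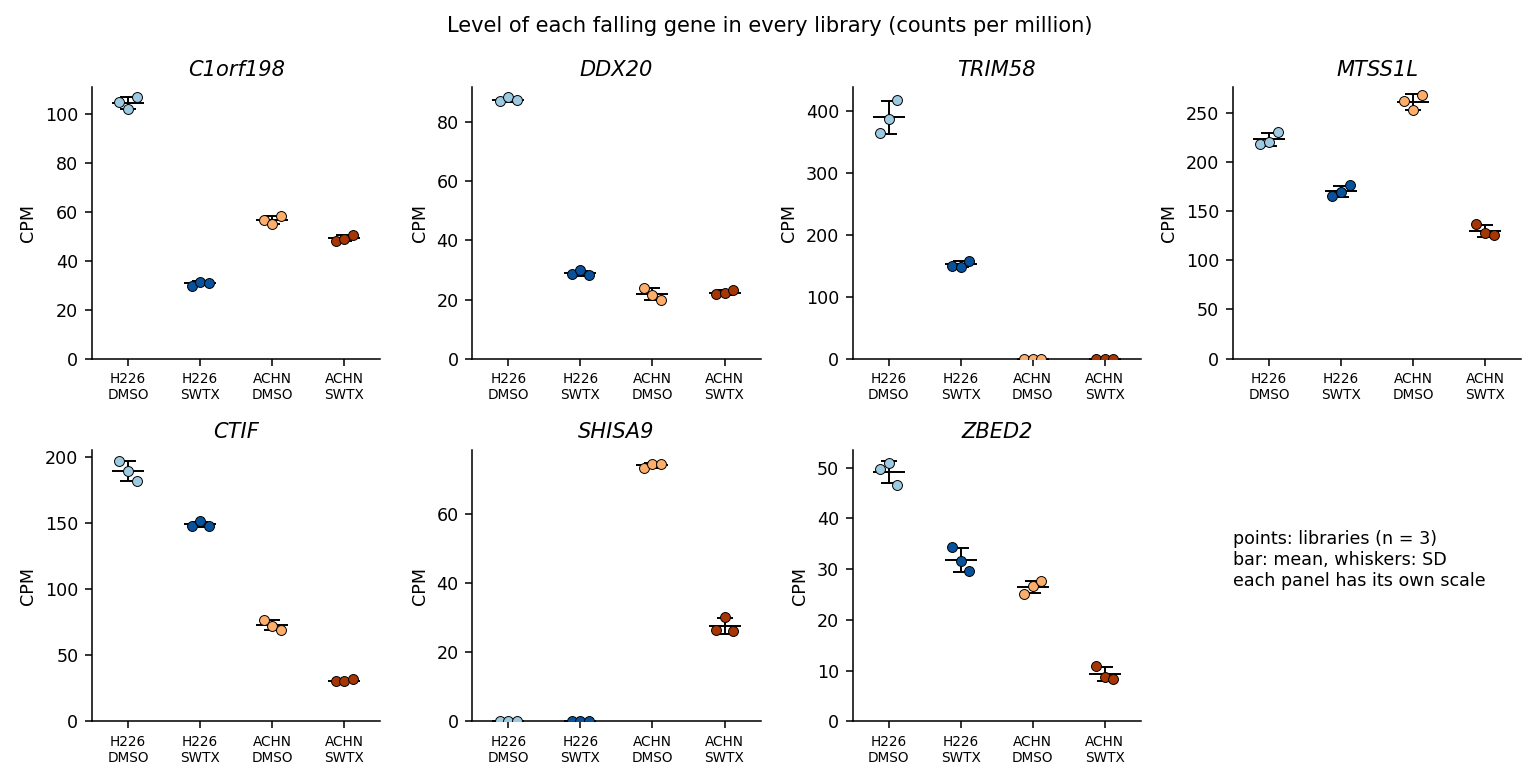
Level of each of the 7 genes in CPM (y axis, linear from 0, its own scale per gene) in the 4 groups of H226 and ACHN cells with DMSO or SWTX-143 (SWTX). Points are the 3 libraries of a group, the bar is their mean and whiskers are SD; SHISA9 lies at 0 in every H226 library, and TRIM58 near or at 0 in every ACHN library.

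C1orf198 had the largest fold change of the 7 genes in H226. Its DMSO libraries measured 105, 102 and 107 CPM and the treated ones 29.9, 31.5 and 31.0 CPM. The groups lay far apart, and the log2 fold change was −1.79 ± 0.06, a 3.46-fold lower level that ranked 23rd from the lowest among all tested genes. In ACHN the DMSO libraries measured 56.7, 55.1 and 58.2 CPM and the treated ones 48.2, 49.0 and 50.6 CPM. Those groups did not overlap either, but the change was only −0.20 ± 0.06. The H226 effect minus the ACHN effect was −1.59 ± 0.08 (95% interval −1.76 to −1.43).

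DDX20 was lower in treated H226 and level in ACHN. Its H226 DMSO libraries measured 87.1, 88.4 and 87.3 CPM, and the treated ones 28.6, 29.9 and 28.2 CPM. The groups, with SDs of 0.671 and 0.877 CPM, lay far apart, and the log2 fold change was −1.63 ± 0.06, or 3.09-fold. ACHN gave 23.8, 21.7 and 19.8 CPM with DMSO and 21.7, 22.1 and 23.2 CPM with the inhibitor. The ACHN groups overlapped, with a log2 fold change of 0.04 ± 0.08. The effects differed by −1.67 ± 0.10 (95% interval −1.88 to −1.47), an interval that overlaps that of C1orf198.

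TRIM58, the ubiquitin ligase, was an H226 gene. With DMSO its libraries held 365, 387 and 418 CPM, and with SWTX-143 150, 149 and 158 CPM. Every treated library was below every DMSO library, at a log2 fold change of −1.38 ± 0.05 (2.6-fold). ACHN held 3 TRIM58 counts over its 3 DMSO libraries and 0 over the treated ones, where 3 counts would have been 0.0876 CPM. No response could be measured there.

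MTSS1L, the I-BAR protein, was lower in both lines. ACHN measured 262, 252 and 268 CPM with DMSO against 137, 127 and 126 CPM with the inhibitor, a log2 fold change of −1.01 ± 0.04 (2.01-fold). H226 measured 218, 221 and 230 CPM against 165, 169 and 176 CPM, a change of −0.42 ± 0.04. The groups were apart in each line. The H226 effect was the smaller, by 0.58 ± 0.06 (95% interval 0.46 to 0.71).

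CTIF, the cap-complex translation factor, showed the same order of lines. In ACHN it went from 76.7, 72.3 and 69.5 CPM to 30.2, 30.2 and 31.9 CPM, a log2 fold change of −1.24 ± 0.06 (2.37-fold). In H226 it went from 197, 190 and 183 CPM to 148, 152 and 148 CPM, at −0.37 ± 0.05. No treated library reached a DMSO library in either line. The difference between effects was 0.86 ± 0.08 (95% interval 0.71 to 1.01).

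SHISA9, the AMPA-receptor companion, was an ACHN gene. It had no count in any of the 6 H226 libraries, where 3 counts would have been 0.0991 CPM over the DMSO group and 0.0960 CPM over the treated group. ACHN measured 73.3, 74.6 and 74.6 CPM with DMSO and 26.3, 30.3 and 26 CPM with SWTX-143. These groups were far apart, at a log2 fold change of −1.43 ± 0.06 (2.70-fold), ranked 14th from the lowest among tested genes in that line.

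ZBED2, the zinc-finger factor, had the largest fold change of the 7 genes in ACHN. Its libraries there measured 25.2, 26.7 and 27.6 CPM with DMSO and 11, 8.67 and 8.41 CPM with the inhibitor. The log2 fold change was −1.50 ± 0.10 (2.83-fold), ranked 11th from the lowest. H226 measured 49.7, 51.0 and 46.7 CPM against 34.4, 31.7 and 29.5 CPM, a change of −0.66 ± 0.07 with no overlap. The difference between effects was 0.84 ± 0.12 (95% interval 0.59 to 1.08).

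**Figure D2:**
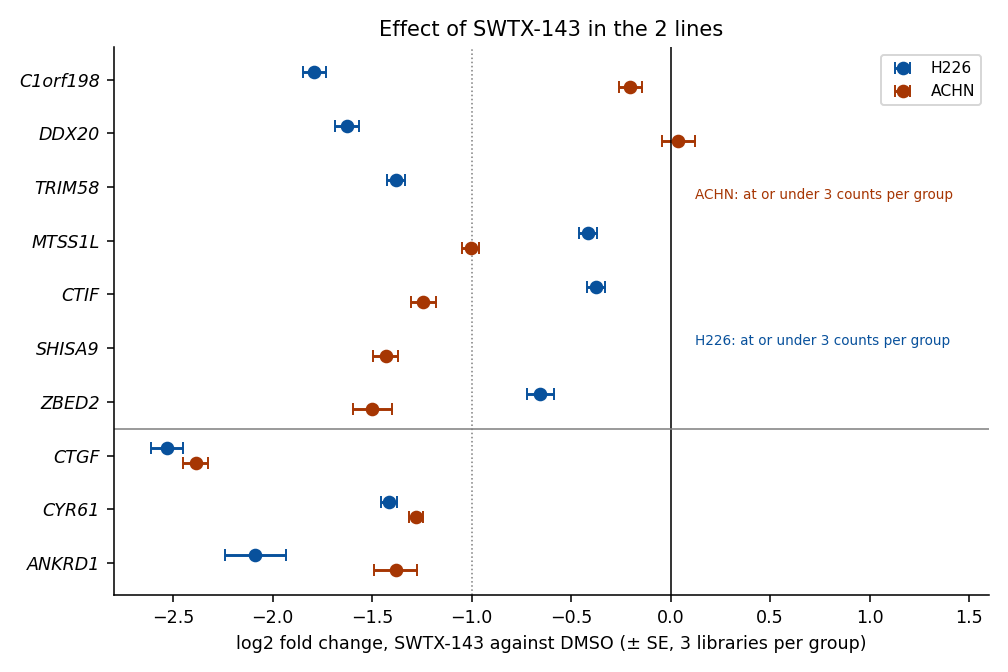
Log2 fold change of SWTX-143 against DMSO (x axis, ± SE, 3 libraries per group) for the 7 genes and, under the grey line, the target genes CTGF, CYR61 and ANKRD1, in H226 (blue) and ACHN (brown). The dotted line marks a 2-fold fall; C1orf198, DDX20 and TRIM58 lie past it in H226, and CTIF, SHISA9, ZBED2 and, just past it at −1.01, MTSS1L in ACHN.

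The YAP/TEAD target genes used as a reference ranged widely, and some also differed between the lines. CTGF, the standard readout of YAP activity, changed by −2.53 ± 0.08 (log2) in H226 and −2.39 ± 0.06 in ACHN, falls that both passed the test. CYR61 changed by −1.41 ± 0.04 and −1.28 ± 0.04, and ANKRD1 by −2.09 ± 0.15 and −1.38 ± 0.11. The difference between lines did not pass the test for CTGF (−0.15, adjusted p = 0.414) or CYR61 (−0.14, adjusted p = 0.0798), and passed for ANKRD1 (−0.71, adjusted p = 0.00729), in a contrast where 15.6% of 14664 tested genes passed. F3, which encodes tissue factor, was scarce in ACHN, with 42 counts over the DMSO libraries and 38 over the treated ones. H226 held 182 CPM of F3 with DMSO. F3 went from −1.67 ± 0.05 in H226 to −0.19 ± 0.34 in ACHN (difference −1.49, adjusted p = 6.02e-04). CRIM1 went from −0.45 ± 0.04 to −1.01 ± 0.04 (difference 0.56, adjusted p = 1.45e-13). F3 and CRIM1 were named for a small p of the drug effect in a line. Of the 22 listed targets, 16 were lower and 0 higher in H226, with a median of −0.59, where 21.6% of all tested genes were lower and 19% higher. In ACHN 16 were lower and 1 higher, with a median of −0.53, where 9.37% of all tested genes were lower and 8.43% higher. The higher one was NT5E (0.55 ± 0.05), named after its value was seen. For the 7 genes the medians were −1.02 in H226 and −1.12 in ACHN over the 6 that passed the filter in each. These 2 medians follow from the choice of strong falls, so nothing is read from them. Over all tested genes the medians were −0.001 and 0.001. C1orf198 and DDX20, chosen for their falls, had larger log2 falls in H226 than CYR61 and smaller ones than CTGF and ANKRD1.

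The level of the 5 genes present in both lines was tested between the lines in DMSO, a comparison outside the choice, although the DMSO libraries also enter the drug contrasts. With DMSO, C1orf198 was 1.85-fold higher in H226 (log2 0.89 ± 0.05, adjusted p = 2.17e-27), DDX20 4.05-fold (2.02 ± 0.07, adjusted p = 8.22e-45), CTIF 2.62-fold (1.39 ± 0.05, adjusted p = 1.21e-42) and ZBED2 1.86-fold (0.90 ± 0.07, adjusted p = 9.12e-20). MTSS1L was lower in H226 (−0.22 ± 0.04, adjusted p = 2.34e-06). Thus 4 were higher in H226 and 1 in ACHN, where 84.4% of 14664 tested genes differed between the lines, 42.2% higher in H226 and 42.2% higher in ACHN. So common a difference is not particular to these genes.

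The level with SWTX-143 holds the drug response that chose the genes, so it is described with no test. The order of the lines turned round for 2 genes. No share of all tested genes was computed for such a turn, so nothing is read from that count. Other named genes turned round too, such as the target gene AMOTL2 and the helicase DDX10. C1orf198, higher in H226 with DMSO, was lower there with the inhibitor (−0.70 ± 0.06, 95% interval −0.83 to −0.58). MTSS1L, lower in H226 with DMSO, was higher there (0.36 ± 0.05, 95% interval 0.27 to 0.45). For DDX20 the gap shrank to 0.35 ± 0.08 (95% interval 0.19 to 0.50), and the treated H226 libraries, at 28.2 to 29.9 CPM, stood just above ACHN at 19.8 to 23.8 CPM over both treatments. For CTIF and ZBED2 the gap widened, to 2.25 ± 0.06 and 1.73 ± 0.09. The tables came as 1 per line, so these gaps combine the line with anything that differed in handling.

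**Figure D3:**
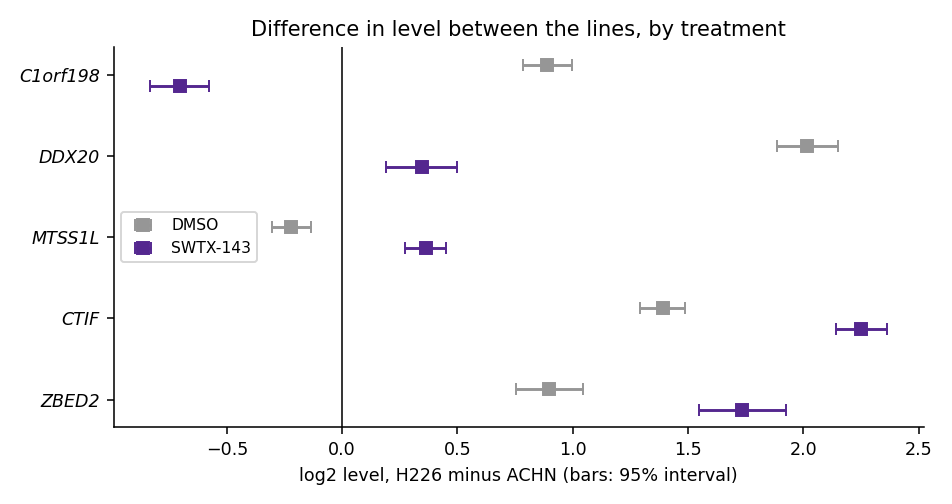
Difference in level between lines (x axis, log2, H226 minus ACHN, with 95% intervals) for the 5 genes present in both, with DMSO (grey) and SWTX-143 (purple). C1orf198 and MTSS1L cross 0 in opposite directions, the DDX20 gap shrinks from 2.02 to 0.35, and the CTIF and ZBED2 gaps widen.

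The remaining genes were nearly confined to 1 line. With DMSO, SHISA9 was at least 749-fold higher in ACHN, taking 3 counts over the H226 group as the limit, and with the inhibitor at least 286-fold. TRIM58 was 4300-fold higher in H226 with DMSO (95% interval 1470 to 20800, counting error only) on the strength of 3 ACHN counts. With the inhibitor it was at least 1740-fold higher.

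Ordered by level, the 4 groups separated for most genes. For C1orf198 the order ran from H226 DMSO through ACHN DMSO and treated ACHN to treated H226, with no overlap between neighbours. The libraries of the lines did not overlap for 85% of tested genes with DMSO and 84.8% with the inhibitor. For DDX20, H226 DMSO and treated H226 stood above ACHN, and the 2 ACHN groups did not differ beyond their spread. MTSS1L ran from ACHN DMSO through H226 DMSO and treated H226 to treated ACHN. CTIF and ZBED2 ran from H226 DMSO through treated H226 and ACHN DMSO to treated ACHN. ZBED2 at the middle step was closest to touching, with 29.5 to 34.4 CPM in treated H226 against 25.2 to 27.6 CPM in ACHN DMSO.

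Some of the genes beside DDX20, TRIM58 and ZBED2 on the chromosome were lower in the same line, and others were not. In the GENCODE annotation the nearest counted gene downstream of DDX20 is KCND3, which encodes a potassium channel and lies on the opposite strand with its end facing that of DDX20. KCND3 fell in H226 from 49.5, 53.4 and 55.1 CPM to 11.9, 13.4 and 14.1 CPM (−2.02 ± 0.08, adjusted p = 3.55e-28). It had 0 counts in all ACHN libraries, the line in which DDX20 was low and level. No source used here states the strand setting of the counting, so reads of one gene that run into the other cannot be told apart from its neighbour's, and their part in the DDX20 values was not tested. On the other side of DDX20, RAP1A changed by −0.18 ± 0.06 in H226 (adjusted p = 0.0200) and 0.02 ± 0.07 in ACHN (adjusted p = 0.863).

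OR2W3, an olfactory receptor gene downstream of TRIM58 on the same strand, fell in H226 from 9.28, 7.62 and 9.45 CPM to 4.51, 4.89 and 3.67 CPM (−1.03 ± 0.16, adjusted p = 2.27e-07). It had no count in ACHN, as TRIM58 nearly had none. ZBED2 lies within CD96, a lymphocyte receptor gene on the opposite strand. CD96 was scarce, with 45 counts over the ACHN DMSO libraries and 22 over the treated ones (−1.07 ± 0.37, adjusted p = 0.0367). That call was lost when any of 4 ACHN libraries was left out: DMSO replicate 2 or 3 (adjusted p = 0.124 and 0.0939) or treated replicate 1 or 2 (0.163 and 0.143). The next gene, PLCXD2, a phospholipase-like gene, fell in ACHN from 5.51, 6.04 and 6.26 CPM to 4.76, 3.26 and 2.78 CPM (−0.71 ± 0.18, adjusted p = 0.00264) and did not pass in H226 (−0.20 ± 0.37, adjusted p = 0.703). On the other side of ZBED2, the adhesion gene NECTIN3 did not pass in ACHN (−0.10 ± 0.06, adjusted p = 0.267) or H226 (0.14 ± 0.08, adjusted p = 0.153).

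**Figure D4:**
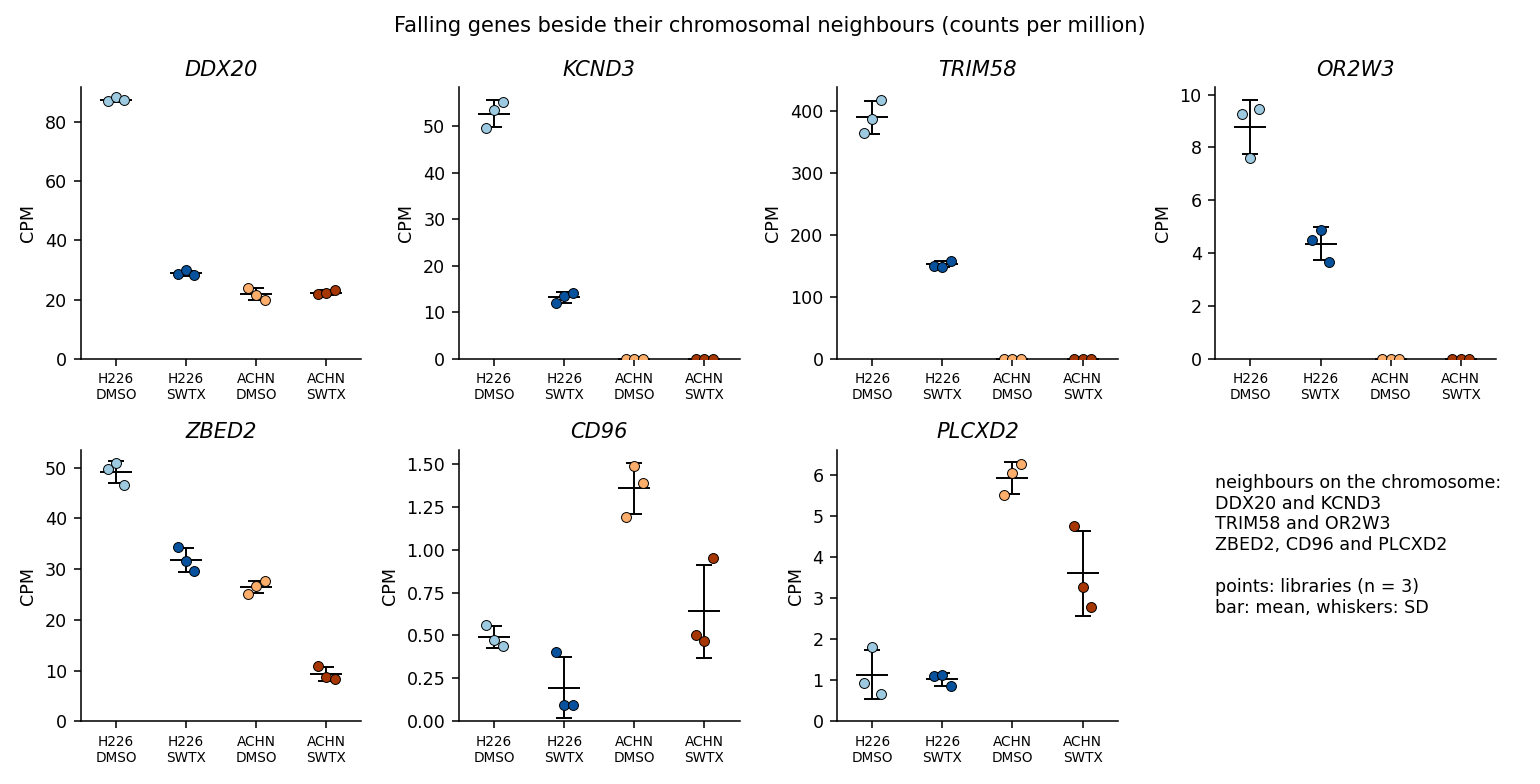
Levels in CPM (y axis, linear from 0, own scale per gene) of DDX20, TRIM58 and ZBED2 beside chromosomal neighbours, in the 4 groups, with points for the 3 libraries, bars for means and whiskers for SD. KCND3 and OR2W3 lie at 0 in all ACHN libraries, and CD96 stays at or below 1.49 CPM throughout.

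Neighbours of the other genes did not share their large falls. Beside C1orf198, TTC13 measured −0.09 ± 0.10 in H226 (adjusted p = 0.540), and the protease gene CAPN9 had too few counts to test. Beside MTSS1L, VAC14, a scaffold for phosphoinositide kinase, measured 0.03 ± 0.05 in ACHN (adjusted p = 0.707) and fell in H226 by 0.19 ± 0.06 (adjusted p = 0.00497). Beside CTIF, the TGF-beta inhibitor SMAD7 measured −0.11 ± 0.08 in ACHN (adjusted p = 0.435). Beside SHISA9, CPPED1 and the DNA repair nuclease ERCC4 measured 0.08 ± 0.06 and −0.05 ± 0.08 in ACHN (adjusted p = 0.445 and 0.746).

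Partners of DDX20 were mostly lower in H226, by smaller amounts than DDX20, which was itself chosen for a strong fall. Of 7 tested members of the SMN complex other than DDX20, 5 fell and 1 rose in H226, with a median of −0.29, where 21.6% of all tested genes fell and 19% rose. GEMIN4, the direct partner of DDX20, fell from 52.8 ± 1.76 to 36.6 ± 2.42 CPM (−0.55 ± 0.07, adjusted p = 4.82e-10), GEMIN5, which recognises the spliceosomal RNA, fell by 0.36 ± 0.07, and GEMIN8 rose by 0.50 ± 0.14 (adjusted p = 0.00272). In ACHN, where DDX20 was level, 2 of 7 fell and 0 rose, GEMIN4 (−0.26 ± 0.06) and GEMIN5 (−0.20 ± 0.06), against 9.37% and 8.43% of all tested genes. Among 16 Sm proteins and assembly factors, 11 fell and 0 rose in H226 (median −0.27), led by the methylosome subunit WDR77 (−0.66 ± 0.06) and SNRPF (−0.43 ± 0.06). With DESeq2, upper-quartile scaling or library size alone, 4 SMN genes and 9 of these 16 fell in H226. Under those 2 scalings 1 of the 16 rose. None of the 16 passed in ACHN (median −0.03) by edgeR or DESeq2, with 3 at an unadjusted p under 0.05.

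DDX20 fell more in H226 than any tested helicase relative, but it was chosen for a strong fall, so this is a description only. Of 32 tested DEAD-box genes other than DDX20, 23 fell and 2 rose in H226, where the background was 21.6% lower and 19% higher, with a median of −0.23. With DESeq2 18 fell there, and with upper-quartile scaling or library size alone 19. Their lowest value was −0.81 ± 0.04, for the nucleolar helicase DDX21, against −1.63 for DDX20. In ACHN, with a background of 9.37% lower and 8.43% higher, 9 fell and 2 rose (median −0.10), with DDX18 (−0.42 ± 0.04) and DDX21 (−0.28 ± 0.04) lowest.

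CTIF partners moved little where CTIF moved most. Of 22 cap-binding and mRNA-decay genes, 4 fell and 0 rose in ACHN (median −0.04): SMG1, a decay kinase (−0.27 ± 0.04), EIF4G1 (−0.15 ± 0.03), the cap-binding subunit NCBP1 (−0.16 ± 0.05) and the cap-binding factor EIF4E (−0.17 ± 0.06). In H226, 10 fell and 0 rose (median −0.10), with the histone mRNA binder SLBP lowest (−0.45 ± 0.06). With DESeq2, upper-quartile scaling or library size alone, 2 of the 22 fell in ACHN. A background of 9.37% lower in ACHN and 21.6% in H226 stands against these counts.

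MTSS1, the closest relative of MTSS1L, went the other way in H226. It rose from 12.6, 13.5 and 14.8 CPM to 30.9, 29.1 and 29.6 CPM (1.11 ± 0.09, adjusted p = 1.87e-15), while MTSS1L was lower in the same libraries. In ACHN MTSS1 had 22 counts over the DMSO libraries and 11 over the treated ones, too few to test. The other I-BAR genes changed less: BAIAP2L1 fell by 0.21 ± 0.06 in H226, and BAIAP2 changed by −0.23 ± 0.06 in ACHN. The call of BAIAP2L1 was lost with DESeq2.

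Among TRIM, dynein, SHISA and ZBED genes both directions occurred, and many counts were near those over all tested genes (21.6% lower and 19% higher in H226, 9.37% and 8.43% in ACHN). Of 40 tested TRIM genes in H226, 13 rose and 6 fell (median 0.10), with rises in TRIM38 (0.50 ± 0.06) and TRIM47 (0.42 ± 0.06) and a fall in the transcriptional corepressor TRIM28 (−0.29 ± 0.04). In ACHN 6 of 43 rose and 2 fell (median 0.02), and DESeq2 called 2 and 1. Of the dynein genes, 2 of 13 fell and 1 rose in H226, with the light chain DYNLL2 lowest (−0.52 ± 0.06). In ACHN 3 of 12 fell and 1 rose. With DESeq2 2 fell and 0 rose there, and the rise was also lost with no filter and with the replicate block. Among SHISA genes in ACHN 1 of 4 passed, SHISA5 (0.19 ± 0.04, higher), and in H226 2 of 3 rose. Of AMPA receptor and auxiliary genes, 2 were tested in ACHN and 4 in H226, and none passed by edgeR or DESeq2, with 0 at an unadjusted p under 0.05. In the ZBED family 0 of 7 passed in ACHN by either tool, with 0 at an unadjusted p under 0.05. In H226 ZBED5 (0.42 ± 0.06) and ZBED6CL (0.49 ± 0.14) rose and ZBED4 fell (−0.25 ± 0.09), the last a call lost with DESeq2 and with both other scalings.

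**Figure D5:**
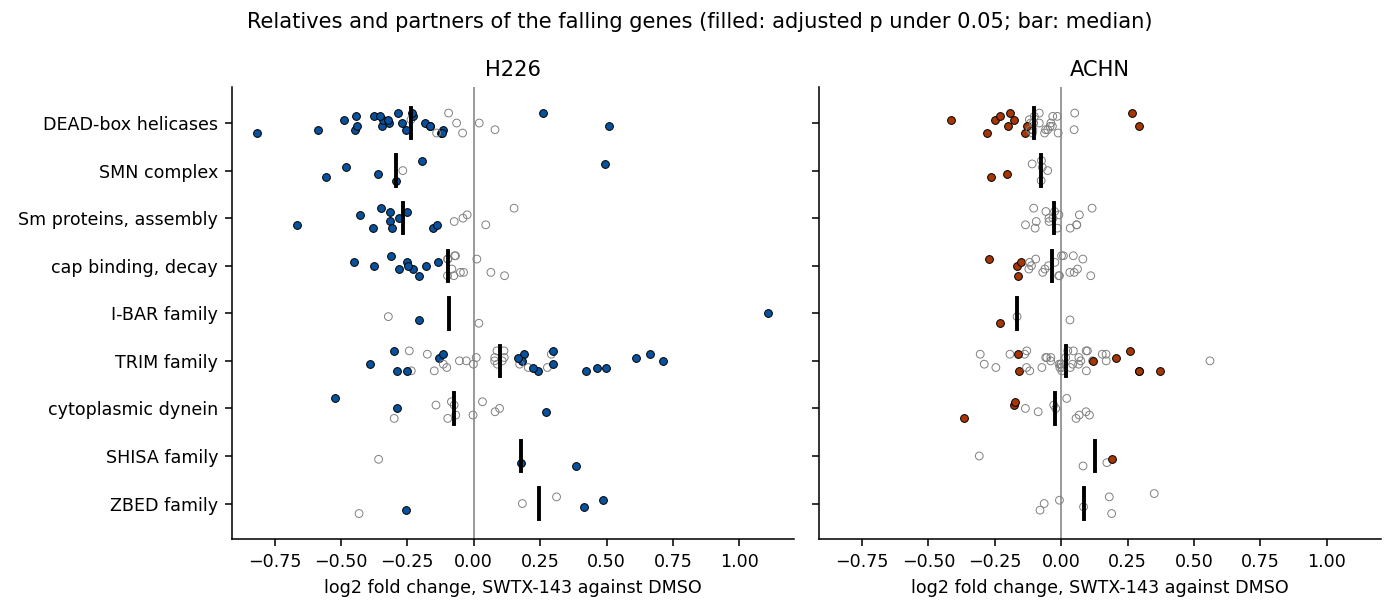
Log2 fold change of SWTX-143 against DMSO (x axis) for relatives and partners of the 7 genes, 1 point per tested gene, in H226 (left) and ACHN (right), filled where adjusted p is under 0.05, with the black bar at the list median. The medians of the DEAD-box, SMN and Sm lists lie left of 0 in H226, while the rightmost I-BAR point is MTSS1 at 1.11.

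Genes with the most similar pattern were found as those with the smallest Euclidean distance in log2 CPM, each gene centred on its own mean, over the 12 libraries. Points of a line share its level, so the distances weigh the gap between lines as well as the drug response. MTSS1L had the closest matches, the insulin receptor substrate IRS2 (distance 0.412), the LIM protein AJUBA (0.419), which binds LATS kinases, and RAB30 (0.465). CTIF was nearest to FAM200B (0.593), the phosphatase DUSP1 (0.603) and PDLIM2 (0.635), and ZBED2 to FRY (0.708), the GTPase RND3 (0.835) and the desmosome protein PKP2 (1.05). All 9 of those genes were lower in ACHN, from −0.75 to −1.21.

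For the other 4 genes the nearest match lay farther off, at 0.906 or more. That order holds for distance only, which grows with a gene's spread over the libraries. By Pearson correlation the TRIM58 matches (0.998) and the SHISA9 matches (0.993 to 0.995) stood above those of MTSS1L (0.939 to 0.957). C1orf198 was nearest to the amino-acid transporter SLC7A5 (0.910), ZNF714 (0.993) and the replication fork protein TIPIN (1.02), and DDX20 to the kinase MOK (0.906), ZNF738 (0.915) and ZNF431 (1.03). ZNF714, ZNF738 and ZNF431 are zinc-finger genes, with H226 changes of −1.51 ± 0.08, −1.16 ± 0.12 and −1.24 ± 0.08. Their ACHN changes were −0.19 ± 0.10, −0.16 ± 0.16 and −0.04 ± 0.13. In ACHN SLC7A5 was lower by more than C1orf198 (−0.84 ± 0.04 against −0.20 ± 0.06). MOK was lower there (−0.29 ± 0.08), where DDX20 was level (0.04 ± 0.08). TIPIN changed by −0.20 ± 0.11 there. All matches were picked for their likeness, so no test is given for them. Zinc-finger genes of this kind have near-identical relatives among which reads can be split. TRIM58 was nearest to the glutamate transporter SLC1A3 (1.29), CEMIP (1.63) and MFAP5 (1.81), and SHISA9 to CHCHD10 (1.63), MT1M (1.70) and the ephrin receptor EPHA7 (1.80). For SHISA9 the shared trait was chiefly the line: EPHA7 changed by only −0.20 ± 0.04 in ACHN against −1.43 for SHISA9. The TRIM58 matches shared the line and also fell in H226, by less than TRIM58 (−1.38). SLC1A3 changed by −0.89 ± 0.04 there, CEMIP by −0.70 ± 0.04 and MFAP5 by −0.54 ± 0.04.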

How the data were processed

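Poly(A) RNA from 12 libraries was read on a BGISEQ-500 as paired ends, per the labels' protocols. FastQC, cutadapt and STAR 2.6.1d, with the build hg19 (GRCh37), are listed in the submitters' processing notes. The authors deposited raw counts per gene symbol, 1 table per line, as whole numbers with no scaling seen. For the counting program, its strand setting and the annotation the entry is: not given in the sources used here. GENCODE 29 and RefSeq (GRCh38) served for neighbours and promoter sequences only.

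edgeR 4.0.16 in R 4.3.3 fitted each line's treatment effect on its 6 libraries, and the differences between lines on all 12 (filterByExpr, TMM, robust quasi-likelihood F test, Benjamini-Hochberg over all tested genes, limit 0.05). Each SE is the log2 fold change divided by the square root of F. Alternatives were DESeq2 1.42.0, other scalings, no filter, a replicate block (averaged over replicates) and leaving out each library. The test was tried on simulated data. Over 12 replicate pairs, chi-square per degree of freedom was 1.36 to 3.42, so none was a copy.

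Genes named were the 7, CTGF, CYR61, ANKRD1, 3 nearest patterns each, chromosomal neighbours with counts, and up to 4 genes per list by smallest p in a line. For the treated levels between lines the planned test was run but no p is printed for the 7 genes, since those levels contain the drug response. Genes and lists were chosen with earlier results of these data known.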

Additional observations from a re-analysis of the deposited data

Results flagged for a closer look

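Among 68 target, neighbouring, partner and marker genes tested in both lines, the drug effect differed between H226 and ACHN in 27, by the interaction contrast of edgeR at an adjusted p under 0.05. Over all 14664 tested genes that share was 15.6%. Apart from chromosomal neighbours and CTGF, CYR61 and ANKRD1, the 68 were named by the smallest p of the drug effect in a line. That choice can raise the share that differs between lines. The share of the 68 is therefore not comparable with that of all genes, and nothing is read from it. Values are log2 effects in H226 less those in ACHN. Target genes gave −0.71 for ANKRD1, −1.49 for F3, 0.36 for AMOTL2 and 0.56 for CRIM1, and VAC14, beside MTSS1L, gave −0.23. F3 was scarce in ACHN, with 42 counts over the DMSO libraries and 38 over the treated ones. In the SMN and Sm lists the values were −0.30 for GEMIN4, 0.60 for GEMIN8, −0.54 for WDR77, −0.43 for SNRPF, −0.29 for SNRPD1, −0.26 for PRMT5 and −0.25 for SNRPB. DEAD-box helicases gave −0.54 for DDX21, −0.24 for DDX47, −0.49 for DDX10 and −0.44 for DDX19A. Cap-binding and decay genes gave −0.43 for SLBP and −0.23 for EIF4A3. Other relatives gave −0.25 for BAIAP2L1, 0.25 for BAIAP2, 0.40 for TRIM16L, −0.35 for DYNLL2, 0.33 for ZBED5 and 0.49 for ZBED6CL. The mesothelial markers LRRN4, TBX18 and UPK3B gave 0.65, 0.42 and 0.69. No p-value of this contrast is given for the 7 genes or for the genes picked for a like pattern, since both were chosen on these responses.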

How the results depend on the processing

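For the 7 genes, 27 values (drug effects, their differences and levels between lines) were recomputed in 387 alternatives, and 1 of these changed sign: DDX20 in ACHN, with a main value of 0.04, ran from −0.03 to 0.11 when single libraries were left out. DDX20 in H226 moved by more than the replicate spread under upper-quartile scaling, to −1.58 from −1.63. Library size alone shifted the median of all genes between lines with DMSO to −0.16, and MTSS1L moved with it from −0.22 to −0.38. Called genes in ACHN numbered 2401 with edgeR and 1492 with DESeq2. In H226, 2919 lower and 2567 higher became 2324 and 3283 under upper-quartile scaling. In ACHN, 1264 and 1137 became 977 and 1537 under library size alone, and the difference contrast went from 1423 and 863 to 1045 and 1159 under upper-quartile scaling. With the replicate block, 5744 genes were called in H226 and 2146 in ACHN, against 5486 and 2401 without it. The block changed no direction among the 7 genes and no call of their DMSO level tests. Replicate numbers did not pair the samples: correlations of deviations ran from −0.16 to 0.17, 2 of 6 were over 0.1, and 2 of 6 libraries correlated best with their own number. Over single libraries left out, calls ran from 4753 to 5365 in H226 and 1841 to 2174 in ACHN. Genes at or under 3 counts in a group have no measured response.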

Other observations

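On the other side of CTIF the neighbouring gene ZBTB7C, a zinc-finger transcriptional repressor, rose in H226 from 19.5, 20.7 and 20.7 CPM to 33.8, 33.1 and 35.9 CPM (0.73 ± 0.08, adjusted p = 3.58e-11 by edgeR), while CTIF was lower in the same libraries. ACHN held 3 ZBTB7C counts with DMSO and 1 with the inhibitor.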
